A study of Arabidopsis thaliana with 6 samples.

Results

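The transcripts described here were raised in anthers of the *myb80* mutant of *Arabidopsis thaliana* on 2 of 3 mutant arrays and less so on the remaining mutant array, replicate 4. They were measured by 20 of the 22746 probe sets of the array that are not Affymetrix controls, and 9 of the 20 name 1 gene. The named genes encode an aspartic protease, a subtilase, a pair of GDSL lipases, a jacalin-related lectin, a galactose mutarotase-like enzyme, a phosphoglucomutase-like enzyme, a small knottin-type protein and a membrane protein of the dehydration-responsive ERD family.

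The mutant group had 3 arrays, named replicates 1, 4 and 5-2, and the wild-type group had 3, named replicates 2, 5 and 6. Each array carried RNA from about 1000 dissected anthers of stages 5 to 8. The labels call the replicates biological, do not say whether they were grown together or what the name 5-2 stands for, and give neither the allele of *myb80* nor the ecotype. MYB80 itself was not analysed here, so the genotype labels were not checked on it.

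MYB80 belongs to the MYB family of transcription factors and acts in the tapetum, the innermost wall layer of the anther. The tapetum feeds the developing microspores, secretes the enzymes that free them from their callose wall, supplies material for the pollen wall and then dies. Without MYB80 the tapetum degenerates early and plants are male sterile. UNDEAD, an aspartic protease gene, is a reported direct target. Anthers hold tapetum, other wall layers, meiocytes and microspores, and in RNA from whole anthers fewer cells of a type and less RNA per cell cannot be told apart.

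Members were chosen on the deposited intensities, raised to a floor of 16. Mutant replicates 1 and 5-2 each had to reach an intensity of 100 and 2.5 times the highest wild-type value, and mutant replicate 4 had to stay below 2 times that value. Of 13 genes to be left out by name, 1 met these conditions, AT2G31210, which encodes a basic helix-loop-helix factor of the tapetum. Its probe set read 377, 109 and 390.3 in mutant replicates 1, 4 and 5-2, against 90.5, 101.5 and 113.6 in wild-type replicates 2, 5 and 6. All 6 arrays entered the choice. The height of replicates 1 and 5-2, the small rise in replicate 4 and the difference between mutant and wild type are therefore what the rule asked for and are given as descriptions, with no test.

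The genes that encode proteases came from different families. AT5G24820 encodes an aspartic protease family protein, of the same broad family as UNDEAD. Its intensity was 1446, 326 and 1593 in mutant replicates 1, 4 and 5-2, against 134.6, 191.9 and 191.5 in wild-type replicates 2, 5 and 6. Replicate 4 lay above every wild-type array, at 1.70 times the highest of them, whereas replicates 1 and 5-2 lay at 7.54 and 8.30 times that value. The log2 difference between the group means was 2.42, with an SD of 1.28 among mutant arrays and 0.29 among wild-type arrays (n = 3 each).

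AT5G59130 encodes a subtilase, a secreted serine protease. It read 177.3, 92.7 and 213.3 in mutant replicates 1, 4 and 5-2, against 66.7, 53.5 and 56.0 in wild-type replicates 2, 5 and 6. Its wild-type arrays lay within 1.25-fold of each other, and replicate 4 lay 1.39 times above the highest of them. The log2 difference was 1.38 (SD 0.63 in mutant and 0.17 in wild type).

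The lipase genes were dim in wild type. GDSL lipases are secreted hydrolases of esters and lipids. AT1G54020 read 259, 139.9 and 384.3 in mutant replicates 1, 4 and 5-2, against 71.8, 48.9 and 68.7 in wild-type replicates 2, 5 and 6. The 3 mutant arrays all lay above the wild-type arrays, and replicate 4, at 1.95 times the highest of these, was close to the limit of the rule. AT5G41890 read 139.9, 36.5 and 188.1 in the mutant replicates, against 16, 45.2 and 52.1 in the wild-type ones, where 16 is the floor. Here replicate 4 lay among the wild-type arrays, below the upper 2 of them, so the groups overlapped.

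JAL23, a jacalin-related lectin that binds carbohydrate, had the highest fold of the 20. It read 657.8, 270.8 and 3491 in mutant replicates 1, 4 and 5-2, against 151.3, 62.6 and 55.8 in wild-type replicates 2, 5 and 6. The mutant arrays did not overlap the wild-type arrays but differed widely among themselves, with replicate 5-2 at 5.31 times replicate 1. The log2 difference of 3.40 had an SD of 1.87 in mutant and 0.79 in wild type, and it was 2.38 without mutant replicate 5-2.

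Among the genes of sugar metabolism, AT5G15140 was bright. It encodes a galactose mutarotase-like protein, of a family that interconverts the ring forms of sugars. It read 4833, 2480 and 5445 in mutant replicates 1, 4 and 5-2, against 500.1, 1664 and 893.9 in wild-type replicates 2, 5 and 6. All mutant arrays were above all wild-type arrays. The wild-type arrays differed 3.33-fold among themselves, so its place in the rule rests on replicate 5, the highest of them.

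AT1G70820, a phosphoglucomutase-like gene, behaved differently from the other named members. It read 145.7, 16 and 188.4 in mutant replicates 1, 4 and 5-2, against 51.96, 45.4 and 49.0 in wild-type replicates 2, 5 and 6. Mutant replicate 4 was at the floor and so below all wild-type arrays, while replicates 1 and 5-2 were above all of them. Its log2 difference of 0.64 came with an SD of 1.96 among mutant arrays, and without mutant replicate 5-2 it was -0.01. This was the only one of the 20 probe sets with replicate 4 below every wild-type array.

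The last named genes had a modest rise on every array. AT2G43530 encodes a small cysteine-rich protein of the knottin fold, a fold shared by defensins and some protease inhibitors. It read 5284, 3769 and 6371 in mutant replicates 1, 4 and 5-2, against 1758.5, 1696 and 2102 in wild-type replicates 2, 5 and 6. AT3G21620, of the ERD family, read 215, 136.1 and 250.3 in the mutant replicates, against 64.9, 84.0 and 58.5 in the wild-type ones. In both genes the groups did not overlap and the spread was small, with an SD of 0.38 and 0.46 in mutant and 0.17 and 0.27 in wild type on the log2 scale.

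**Figure D1:**
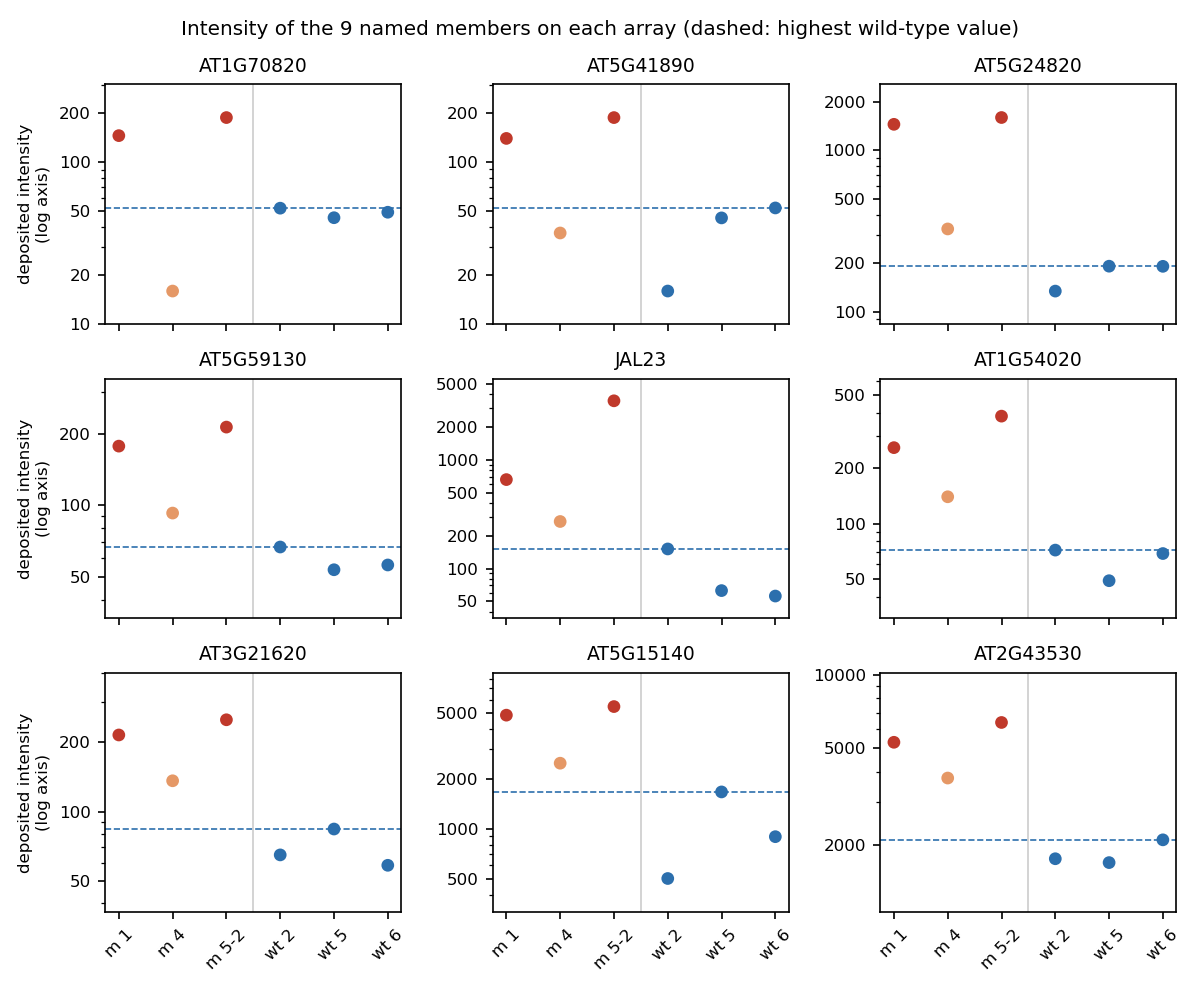
Deposited intensity (log axis, values below 16 raised to 16) of the 9 named members on the mutant (m 1, m 4, m 5-2) and wild-type (wt 2, wt 5, wt 6) arrays, 1 panel per gene; points are single arrays and the dashed line is the highest wild-type value. Mutant replicate 4 lies between the other mutant arrays and that line in 7 genes, and below it in AT5G41890 and AT1G70820.

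The other 11 members are unnamed here. Their probe sets 259383_at and 254085_at had the largest rises among them. Probe set 259383_at read 1677, 517.6 and 2682 in mutant replicates 1, 4 and 5-2, against 262.2, 158.1 and 174.9 in wild-type replicates 2, 5 and 6. Probe set 254085_at read 1444, 446 and 1743 in the mutant replicates, against 202, 244.7 and 214.9 in the wild-type ones. In both, the mutant arrays lay above all wild-type arrays. Over the 11, replicates 1 and 5-2 lay at 2.85 to 6.39 and 2.72 to 10.2 times the highest wild-type value, and replicate 4 at 1.01 to 1.97 times.

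Mutant replicate 4 lay above the highest wild-type array in 18 of the 20 probe sets; over all 22746 probe sets, many of them at the floor, the share was 33.2%. The rule used these arrays, so nothing is read from that count. On the log2 scale replicate 4 covered a median of 41.9% of the distance between the wild-type mean and the mean of mutant replicates 1 and 5-2, and in 14 of 20 it covered less than 50%. Its largest share was 65.3%. Replicate 5-2 was brighter than replicate 1 in 17 of the 20, all 9 named ones included, and in 35.7% of all probe sets; the rule used both arrays, and nothing is read from this count either. The median ratio of replicate 5-2 to replicate 1 was 1.204 in the members and 1.113 in the 47 raised probe sets where replicate 4 reached 2 times the highest wild-type value. The wild-type arrays lay close together, with a median of 1.43 between the highest and the lowest and a range from 1.14 to 3.50.

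**Figure D2:**
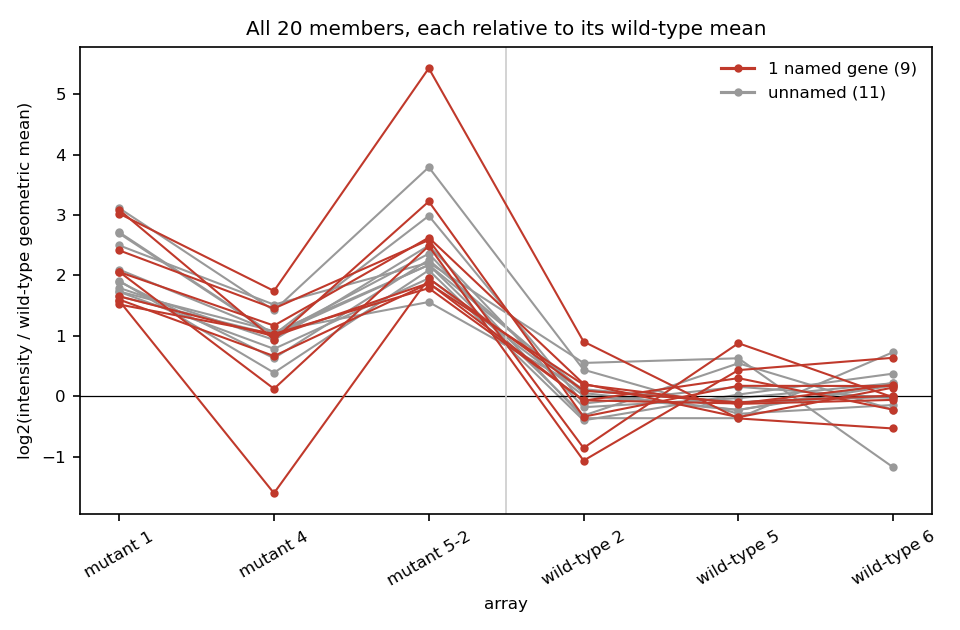
Log2 ratio of each array's deposited intensity to the wild-type geometric mean of the same probe set (vertical axis) on the mutant and then the wild-type arrays (horizontal axis), 1 line per member. In 18 of 20 lines mutant replicate 4 lies above all wild-type arrays and in every line it lies below both other mutant arrays; the top line is JAL23 and the lowest point is AT1G70820.

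The limit on replicate 4 cut a continuous range. Without the condition on replicate 4, 68 probe sets met the rule, AT2G31210 and others left out by name included. Replicate 4 was below the highest wild-type value in 3 of these, at 1 to 2 times it in 18, at 2 to 2.5 times in 11, at 2.5 to 5 times in 27 and at 5 times or more in 9. Replicate 4 was the lowest mutant array in 62 of the 68 (91.2%), among them 41 of the 47 where it reached 2 times the highest wild-type value. The 68 were chosen for high values in replicates 1 and 5-2, so nothing is read from this count. Its median share of the rise was 75.9% in those 47 and 70.8% in all 68, so the 20 members form the weak end of this range.

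**Figure D3:**
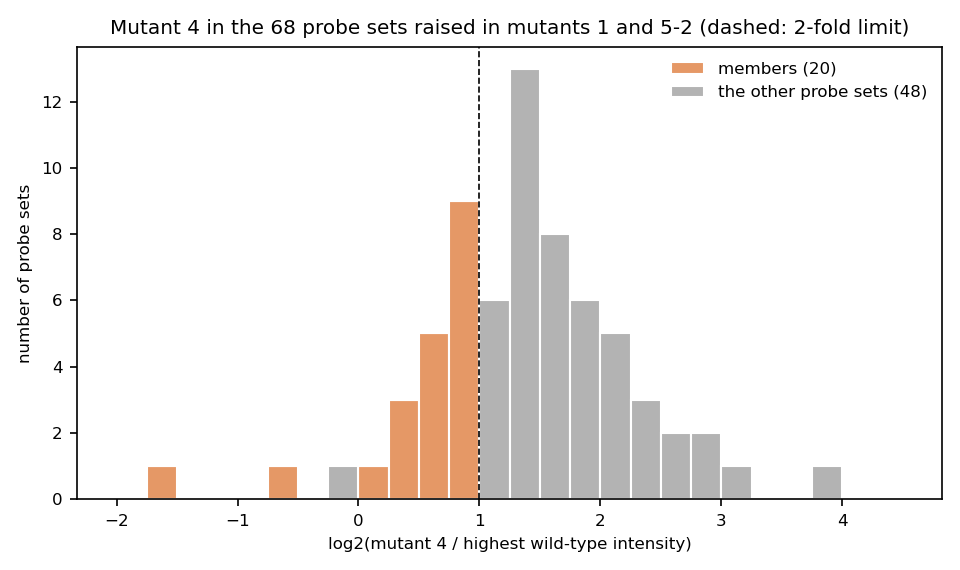
Number of probe sets (vertical axis) by the log2 ratio of mutant replicate 4 to the highest wild-type intensity (horizontal axis), for the 68 probe sets that met the conditions on mutant replicates 1 and 5-2. Members (20) end at the dashed 2-fold limit, the others (48) run on from it without a gap, and the grey bar left of the limit is AT2G31210.

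The members nearest the limits were probe set 259383_at, with replicate 4 at 1.97 times the highest wild-type value, and AT2G43530 and AT3G21620, with replicate 1 at 2.51 and 2.56 times. Just outside lay CCL, a clock-regulated gene, with replicates 1, 4 and 5-2 at 2.45, 1.07 and 3.22 times the highest wild-type value, and AMS, also on the list of genes left out, with replicates 1 and 5-2 at 2.44 and 3.43 times. AT2G24800, a peroxidase family gene, was outside only through replicate 4, at 3.24, 2.01 and 3.02 times.

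Mutant replicate 4 also lay between the groups in lowered transcripts. With the same limits turned round, 254 probe sets were bright in wild type and lowered in mutant replicates 1 and 5-2, and in 248 of them replicate 4 was the highest mutant array. Replicate 4 covered a median of 36.4% of the fall in the 254, and 160 of them kept more than 1 part in 2 of the lowest wild-type value in replicate 4. The 254 were chosen for low values in replicates 1 and 5-2, so nothing is read from the count of 248. These counts describe the same 6 arrays and were not tested.

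Replicate 4 was also described in probe sets called by a fit that left it out. These comparisons and those that follow used limma, after each array was multiplied to a common median and the dimmest 1 in 3 probe sets were left out, with a call at adjusted p under 0.05. With replicate 4 left out, limma called 117 probe sets higher and 418 lower in mutant anthers among 15164 tested, which is 0.772% and 2.76%. In these, replicate 4 covered a median of 58.3% of the rise (quartiles 35.0% and 70.6%) and 44.1% of the fall (quartiles 30.5% and 69.8%) shown by the other mutant arrays. Replicate 1, left out in the same way, covered 100.7% of the rise in 30 probe sets and 91.1% of the fall in 138. Replicate 5-2 covered 126.8% of the rise in 14 and 100% of the fall in 31. For replicates 1 and 5-2 the mean of the other mutant arrays includes replicate 4, which raises their percentages where replicate 4 is weaker. Their probe sets also had to be called with replicate 4 in the fit. The 117 include 19 of the 20 members, which the rule chose for a weak rise in replicate 4. Each fit also picks probe sets with large differences in the arrays it keeps. A share below 100% for the array left out can therefore come from the choice. The sets differ between the 3 fits and share the wild-type arrays, so the medians are descriptions and are not compared between arrays.

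**Figure D4:**
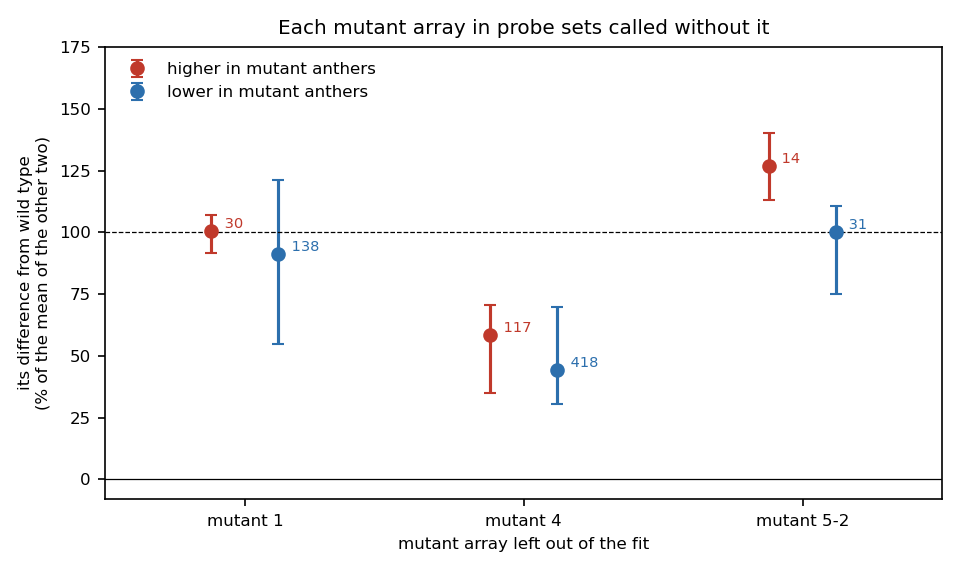
Difference from wild type of each mutant array as a percentage of the mean difference of the other mutant arrays (vertical axis), in probe sets called higher or lower by limma without that array (horizontal axis); points are medians, bars run between the quartiles and numbers give the probe sets. The medians of replicate 4 are 58.3% and 44.1%, and those of replicates 1 and 5-2 lie between 91.1% and 126.8%. The medians of replicates 1 and 5-2 are taken against a mean that includes replicate 4. The probe sets differ between the fits, so the medians are not compared between arrays.

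The array of replicate 4 was at the end of the range in several general measures. Its share of probe sets at the floor was 18.1%, against 19.9% and 23.6% in mutant replicates 1 and 5-2 and 19.3% to 20.2% in wild type. Its median deposited intensity was 81.1, the highest, against 76.1 and 64.8 in mutant replicates 1 and 5-2 and 69.5 to 73.5 in wild type. Across the 15164 probe sets, its log2 values had a Pearson r of 0.861 to 0.883 with wild-type arrays and 0.866 and 0.875 with the other mutant arrays, which in turn had 0.794 to 0.851 with wild type. The ratio of 3' to 5' signal, a sign of RNA integrity, was 29.6 in replicate 4 by the actin control pair named r2, against 20.3 and 17.1 in replicates 1 and 5-2 and 13.3 to 24.7 in wild type. By the pair named Athal it was 23.3 in replicate 4, against 16.2 and 32.8 in the other mutant arrays and 25.1 to 34.4 in wild type. The GAPDH pairs gave 3.64 (r2) and 56.2 (Athal) in replicate 4, against 2.39 to 4.57 and 25.9 to 53.1 on the other 5 arrays. The part of RNA quality in the weak rise of the members was not tested.

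Markers of microspores and pollen were lower in mutant anthers, and their sum was least lowered in replicate 4. Of 17 genes of that list 10 had a named probe set, and all 10 were lower in mutant than in wild type. Their summed scaled intensity was 409, 2010 and 531.8 in mutant replicates 1, 4 and 5-2, against 4169 to 6376 in wild type. Replicate 4 thus kept more of this summed signal than the other mutant arrays. Of it, 1426 came from AT5G45880, whose protein resembles a pollen protein of tomato. Replicate 4 was also the highest mutant array in ACT12, AGL104, AGL66, AGL30 and MGH3. It was not in AGL65 (72.0, 16 and 20.6 in mutant replicates 1, 4 and 5-2) or AT4G39110 (50.7, 40.4 and 16). Of 9 genes tested 3 fell by limma and 0 rose, beside 1.6% and 0.448% of all probe sets tested. Those that fell were ACT12, AGL104 and ANX2, with log2 differences of -2.70, -2.21 and -2.36 (limma adjusted p = 0.0328, 0.0171 and 0.0109). At unadjusted p under 0.05, 8 were lower and 0 higher, beside 7.41% and 4.87% of all probe sets tested. The calls of all 3 were lost with no filter (adjusted p = 0.271, 0.172 and 0.129) and without mutant replicate 5-2 (0.14, 0.0824 and 0.0591). That of ACT12 was also lost on deposited values (0.0716) and without mutant replicate 1 or any 1 wild-type array (0.0595 to 0.132), and that of AGL104 without wild-type replicate 2 or 5 (0.0659 and 0.0748). ACT12 is a pollen actin and AGL104 a MADS factor of pollen maturation. ANX1 and ANX2, receptor kinases of the pollen tube, were at the floor on all 3 mutant arrays, so the fall of ANX2 is a lower bound. The part of these markers in the weak rise of the members was not tested.

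Over all 6 arrays limma called 68 probe sets higher (0.448%) and 243 lower (1.6%) in mutant anthers, 311 in all (2.05%), and 54 and 87 on values as deposited. Of the 20 members 1 was called, an unnamed probe set, and 19 were called without replicate 4; the rule used this contrast, so nothing is read from these counts. The median log2 difference of the members was 1.64 on the median-scaled values, beside 0.04 over all probe sets tested. Genes outside the rule were set beside the members on the same fit.

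The genes that surround the named members on the chromosomes were examined next. The 9 named members lie on chromosomes 1 (2 genes), 2 (2), 3 (1) and 5 (4) of the RefSeq annotation of TAIR10.1, and no pair of them is adjacent. Within 5 protein-coding genes on either side lay 90 genes, of which 46 had a named probe set and 33 were tested. By limma 0 of the 33 rose and 1 fell after adjustment, and 2 and 7 did at unadjusted p under 0.05, where 4.87% and 7.41% of all 15164 probe sets tested were higher and lower. Their median log2 difference was 0.09 over the 46.

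The gene that fell was SBT4.13, which lies next to the member AT5G59130 and also encodes a subtilase. It read 22.2, 23.9 and 16.3 in mutant replicates 1, 4 and 5-2, against 303.2, 443.7 and 206.7 in wild-type replicates 2, 5 and 6, in median-scaled intensity. No array of the groups overlapped, and replicate 4 was as low as the other mutant arrays. The log2 difference was -3.88 ± 0.34 by limma (± SE, 3 arrays a group, adjusted p = 0.00278). It ranged from -4.16 to -3.61 over the alternatives, with an adjusted p of 0.109 when no probe set was filtered out. Neighbouring subtilases are alike in sequence, and cross-hybridisation between them was not tested. Of 13 genes with a symbol or synonym of the subtilase family, 10 had a named probe set and 7 were tested. Among these none but SBT4.13 was called.

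Within 3 places of AT2G43530, the knottin-type genes AT2G43535 and AT2G43550 had log2 differences of 0.02 and 0.12 (limma adjusted p = 0.994 and 0.951). AT2G43550 read 1088, 558.3 and 1264 in mutant replicates 1, 4 and 5-2, against 1124, 762.1 and 701.3 in wild type, so replicate 4 was the lowest of all 6 arrays. JAL22, 2 places from JAL23 and also a jacalin-related lectin, was between the floor and 30.4 on every array and was too dim for the test.

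JAL23 and a group of GDSL lipases are known in seedlings and roots from the complex around PYK10, the beta-glucosidase of endoplasmic reticulum bodies. Of 14 genes on a list drawn up after the members were known, 6 had a named probe set and 3 were tested, and limma called 0 higher and 0 lower, with 0 higher and 1 lower at unadjusted p under 0.05 (4.87% and 7.41% over all). PYK10 itself differed by 0.10 ± 0.41 (limma adjusted p = 0.966), NAI1, the factor needed for these bodies, by -0.28 ± 0.39 (adjusted p = 0.863) and JAL34 by -1.20 ± 0.51 (adjusted p = 0.386).

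UNDEAD stood opposite to the aspartic protease gene AT5G24820. Its scaled intensity was 180.6, 104.1 and 29.5 in mutant replicates 1, 4 and 5-2, against 406.4, 847.6 and 1127 in wild-type replicates 2, 5 and 6 (log2 difference -3.15 ± 0.63, limma adjusted p = 0.0406). Replicate 4 lay between the other mutant arrays here, unlike in the members. The call was lost with no filter, after quantile normalization, on deposited values and without mutant replicate 5-2 or any 1 wild-type array (adjusted p 0.0613 to 0.314).

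Lists of tapetal genes were set beside the members. Of the secreted lipid transfer protein list, 6 of 10 genes had a named probe set and were tested. By limma 4 rose and 0 fell, beside 0.448% and 1.6% of all probe sets tested. The list's median log2 difference was 1.93, and the list was drawn up with results of these arrays known. Its genes AT5G52160, AT5G62080, AT5G07230 and AT1G66850 were among those left out of the members by name. Besides AT3G52130, those that rose were AT5G52160, AT3G07450 and AT5G62080, with log2 differences of 3.11, 2.31 and 1.80 (limma adjusted p = 0.0172, 0.00719 and 0.0277). All 3 calls were lost with no filter (adjusted p = 0.221, 0.109 and 0.196). That of AT5G52160 was also lost without mutant replicate 5-2 or wild-type replicate 2 or 5 (0.0591 to 0.074), and that of AT5G62080 without mutant replicate 1 or 5-2 or any 1 wild-type array (0.0558 to 0.11). AT3G52130 read 1143, 681.1 and 961.6 in mutant replicates 1, 4 and 5-2, against 180.2, 267.4 and 212.7 in wild type, in scaled intensity. The groups did not overlap, and the log2 difference was 2.06 ± 0.30 (limma adjusted p = 0.0154). The call was lost with no filter (adjusted p = 0.133) and without mutant replicate 5-2 or any 1 wild-type array (adjusted p 0.0547 to 0.0726). In this list replicate 4 had a median log2 difference from wild type of 1.57 and replicates 1 and 5-2 one of 2.11, beside 0.84 and 2.17 in the members and -0.07 and 0.10 over all probe sets tested. The summed intensity of the list was 64356, 52224 and 71076 in mutant replicates 1, 4 and 5-2, against 22062 to 28443 in wild type.

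Among tapetum regulators 7 of 22 were measured, 5 were tested and 0 were called by limma, with 2 higher and 0 lower at unadjusted p under 0.05, beside 4.87% and 7.41% of all probe sets tested. These were AMS and AT2G31210, with log2 differences of 1.28 ± 0.37 and 1.28 ± 0.51 (adjusted p = 0.148 and 0.33). Without mutant replicate 4 their adjusted p was 0.0239 and 0.00665. AT2G31210 met the rule and AMS lay just outside it, so the fit without replicate 4 tests values that the rule used. Nothing is read from these adjusted p-values. The list's median difference was 0.30 in replicate 4 and 0.83 in replicates 1 and 5-2.

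The peroxidase genes AT4G16270 (PRX40) and AT1G44970 (PRX9) act in the tapetum wall and come from a list of 5 class III peroxidases. Of these 3 had a named probe set and 2 were tested. The third, AT5G64120, was too dim for the test, at 45.3 in replicate 4 and at the floor of 16 on every other array. AT4G16270 read 749, 203.6 and 1402 in mutant replicates 1, 4 and 5-2, against 322.9, 344.8 and 356.9 in wild type. Replicate 4 lay below all wild-type arrays and the other mutant arrays above them, the same order as in AT1G70820. AT1G44970 read 2223, 1070 and 2874, against 1055, 1416 and 1705 in wild type, with replicate 4 at the level of the lowest wild-type array. Their log2 differences of 0.81 ± 0.59 and 0.47 ± 0.39 did not pass (limma adjusted p = 0.67 and 0.724). Without replicate 4 AT4G16270 passed, with a log2 difference of 1.59 (limma adjusted p = 0.041). That fit leaves out the 1 mutant array that lay below wild type, so nothing is read from this adjusted p-value.

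**Figure D5:**
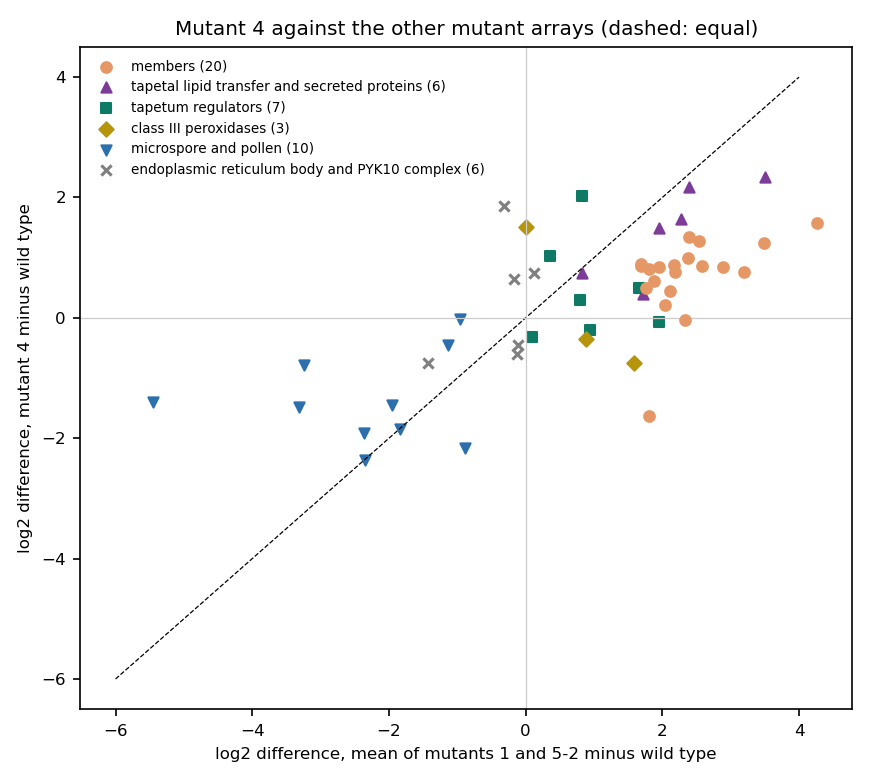
Log2 difference from wild type of mutant replicate 4 (vertical axis) against that of the mean of mutant replicates 1 and 5-2 (horizontal axis), in median-scaled intensity, for the 20 members and for genes of 5 lists; each point is 1 probe set and the dashed line marks equal differences. Members lie below the line, as the rule requires, all 6 lipid transfer protein genes lie below it at positive differences, and most microspore and pollen genes lie above it on the negative side.

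The other lists had few measured members and 0 calls in either direction by limma. Of pollen coat genes 2 of 9 were tested, of meiosis genes 1 of 15, of sepal, petal and carpel markers 2 of 7 and of photosynthesis genes 2 of 10. Of callose and tetrad genes 1 of 6 was tested, of senescence and drought genes 1 of 10, of handling and heat stress genes 1 of 8, of phenylpropanoid genes 1 of 12 and of cell division genes 2 of 3. At unadjusted p under 0.05, where 4.87% of all probe sets tested were higher, these held 2 genes, ATMND1 of the meiosis list and LHCB4.1 of photosynthesis, both higher in mutant. COR15A, a cold and drought gene, read 786.6, 390.1 and 1882 in mutant replicates 1, 4 and 5-2, against 742.2, 416.5 and 656.7 in wild type, so replicate 4 was below all wild-type arrays and the other mutant arrays above them (log2 difference 0.50 ± 0.52, limma adjusted p = 0.793). The lists of sporopollenin synthesis, endothecium, salicylate defence, and wax, cutin and suberin had no named probe set here, and the jasmonate list had 1, PDF1.2, too dim for the test.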

How the data were processed

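Biotin-labelled RNA was hybridised to 1 Affymetrix array per sample. Each deposited value is a linear intensity of 1 probe set, as judged from the values, with arrays brought to 1 common trimmed mean; the authors' software is not stated in the labels. Of 22810 probe sets, 64 Affymetrix controls were left out. Groups came from the sample titles. The labels call the replicates biological but do not say whether they were grown together, and p-values therefore reflect only how these arrays differ.

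Members are described on the deposited intensities, raised to 16. For the fit, arrays whose log2 medians differed by 0.323 were multiplied to a common median (factors 0.897 to 1.12), floored at 16 and log2 transformed, and the dimmest 1 in 3 probe sets were left out, which left 15164. limma 3.58.1 in R 4.3.3 (lmFit, eBayes, two-sided, Benjamini-Hochberg, adjusted p under 0.05) was checked on simulated data. SE values are limma's. The 20 members all passed the filter.

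Members, lists and the choice of the filtered fit were made with earlier results of these data known; the lists on the PYK10 system, subtilases, jacalin-related lectins, UNDEAD and neighbours were added after the members were seen. Named are all members with 1 gene, the 3 nearest each side of the limits, and from each list up to 4 called genes or else up to 2 with the smallest p. Other genes were named after their values were seen. Where a gene had several probe sets the brightest was used. Probe sets with 1 gene numbered 13513, with several 503 and unnamed 8730; 13436 matched RefSeq. Sequences were not used here.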

Additional observations from a re-analysis of the deposited data

How the results depend on the processing

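The number of arrays limits every value. The rule gave 20 members on the deposited values, 19 on median-scaled values (17 shared), 16 after quantile normalization (14 shared), 20 with a floor at the 20th percentile or with no floor, and 27 (10 shared) with the wild-type mean in place of the highest wild-type value, an alternative added after seeing the data. AT2G43530, AT3G21620 and AT5G59130 were no members on either scaled version. The median log2 difference of the members (1.68 as deposited) ran from 1.38 without mutant replicate 5-2 to 2.14 without mutant replicate 4, and the position of replicate 4 from 35.3% to 43.2%.

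Calls depended on the fit. Higher and lower calls (68 and 243) were 118 and 409 with a mean-variance trend, 1 and 2 with no filter, 133 and 408 at adjusted p under 0.1, 61 and 133 after quantile normalization and 54 and 87 on deposited values; without 1 array they ran from 12 to 117 and from 31 to 418. Members called (1 of 20) were 13 with the dimmest 1 in 2 left out, 14 with the trend, 3 after quantile normalization, 0 with no filter, and from 0 to 19 without 1 array. The count of 19 came without mutant replicate 4, where the rule makes members weak.

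Among the genes named by rule, the log2 difference changed sign without 1 array for AT1G70820 (-0.0129 without mutant replicate 5-2 to 1.77), COR15A (-0.0854 without mutant replicate 5-2 to 1.05), the pollen coat gene AT1G75920 (-0.000541 without mutant replicate 5-2 to 0.491), the carpel gene SPT (-0.0294 without mutant replicate 5-2 to 0.182, and -0.00355 without wild-type replicate 2) and the cell division gene AUR2 (-0.201 to 0.117 without mutant replicate 4, and 0.09 without wild-type replicate 5). The cause was not tested. No paired analysis was possible because mutant and wild-type arrays share no replicate name.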
